A study of Homo sapiens with 4 samples.

Results

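The centromere and kinetochore genes were taken as the 38 features of the count table whose symbol is CENP followed by 1 letter (19 genes) or that carry one of 19 further names, from the MIS12, NDC80, RZZ and SKA complexes, the shugoshins and the loading factors of CENP-A, out of 37450 features in all. Their messenger RNA was measured in 143B cells, a human osteosarcoma line, on day 2 after lipid transfection of small interfering RNA. The siCBX3 group (genotype label CBX3 knockdown) had 2 libraries and the siNC group (non-targeting RNA, genotype label WT) had 2. All 4 libraries come from this 1 line, in serum-containing medium with antibiotics, and nothing in the labels says whether replicates were separate cultures. The p-values below therefore rest on variation between libraries that may be technical.

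The kinetochore is the protein structure that forms on the centromere of each chromosome and holds the microtubules of the mitotic spindle. Its foundation is a nucleosome with the histone H3 variant CENP-A, on which the inner kinetochore proteins assemble. The outer layer, built in mitosis from the MIS12 and NDC80 complexes and KNL1, binds microtubules and carries the spindle checkpoint. CBX3 encodes HP1γ. HP1 proteins are concentrated in the heterochromatin that flanks centromeres, and they bind the cohesin protector SGO1 and the passenger protein INCENP. Many kinetochore genes are transcribed mainly in G2 and mitosis, from promoters with a cell cycle homology element (CHR), which the MuvB complex recognises.

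Total counts were 36509298 and 38717507 in siCBX3 and 37318382 and 40336907 in siNC. CBX3 had 2020 and 2163 counts in siCBX3, against 20311 and 21384 in siNC, with a log2 fold change of -3.19 (SE 0.08, adjusted p 2.73e-20, edgeR quasi-likelihood test, as for all adjusted p-values below unless another test is named). Levels within a gene are given as TMM-scaled CPM (read counts scaled to a common library size), and a log2 fold change is siCBX3 over siNC. A gene was called higher or lower at an adjusted p under 0.05 over all genes tested. The 7 osteosarcoma and mesenchymal markers summed to 3337 and 3250.4 CPM in siCBX3, against 1168 and 1192 CPM in siNC. SPARC (5.40-fold) and VIM (2.02-fold) carried most of that sum; COL1A1 and RUNX2 were also higher (log2 fold changes of 0.44 and 0.39), COL1A2 was not called (0.24) and CDH11 was lower (-0.25, adjusted p 0.00665). ALPL, a marker of osteoblasts, had 0 to 4 counts per library. The 5 leukocyte markers summed to between 1.87 and 2.64 CPM and the 4 endothelial ones to between 1.82 and 2.89 CPM in the 4 libraries. Of the 5 epithelial markers, the keratins KRT8 and KRT18 were present at 330.5 to 455 CPM in siCBX3 and 548 to 724 CPM in siNC. The others were low. EPCAM had 9.70 and 10.2 CPM in siCBX3, against 14.1 and 14.2 CPM in siNC. KRT19 had 2.67 to 3.75 CPM in the 4 libraries and was not called (-0.10), and CDH1 had 4 to 8 counts per library. The part of these marker differences in the results below was not tested.

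The promoters of 5 members are shown as examples and do not stand for the whole set. Printed are those of the largest fall (OIP5), the lowered genes SKA3 and NDC80, and the raised genes ZW10 and CENPB. They are RefSeq sequences of build GRCh38.p14, from 250 bases before to 50 bases after the annotated start, 5′ to 3′ on the strand of the gene. Capitals mark matches on either strand to the CHR letters TTTGAA or TTCGAA, to CCAAT, the box of the factor NF-Y, and to TTTNGCGC, an E2F-type site. They lie at chr15:41332542-41332841 (OIP5, minus strand), chr13:21176503-21176802 (SKA3, minus strand), chr18:2571307-2571606 (NDC80, plus strand), chr11:113773643-113773942 (ZW10, minus strand) and chr20:3786691-3786990 (CENPB, minus strand).
OIP5: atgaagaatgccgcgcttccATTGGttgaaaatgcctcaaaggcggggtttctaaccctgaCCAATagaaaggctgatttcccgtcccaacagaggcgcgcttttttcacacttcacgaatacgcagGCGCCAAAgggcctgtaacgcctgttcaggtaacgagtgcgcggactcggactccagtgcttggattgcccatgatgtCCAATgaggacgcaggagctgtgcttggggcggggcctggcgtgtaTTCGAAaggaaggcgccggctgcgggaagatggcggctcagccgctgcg
SKA3: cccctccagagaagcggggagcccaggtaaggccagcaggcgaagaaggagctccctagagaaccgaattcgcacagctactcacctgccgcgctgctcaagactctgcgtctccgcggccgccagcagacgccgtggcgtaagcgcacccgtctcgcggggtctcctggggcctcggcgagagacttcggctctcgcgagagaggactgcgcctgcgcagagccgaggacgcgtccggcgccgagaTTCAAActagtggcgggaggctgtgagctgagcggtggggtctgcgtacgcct
NDC80: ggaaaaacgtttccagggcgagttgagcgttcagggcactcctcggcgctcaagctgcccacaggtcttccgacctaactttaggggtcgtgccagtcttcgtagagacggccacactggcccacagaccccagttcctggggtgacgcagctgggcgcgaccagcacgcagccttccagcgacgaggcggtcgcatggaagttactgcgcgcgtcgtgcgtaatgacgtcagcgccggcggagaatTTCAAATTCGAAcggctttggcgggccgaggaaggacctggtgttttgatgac
ZW10: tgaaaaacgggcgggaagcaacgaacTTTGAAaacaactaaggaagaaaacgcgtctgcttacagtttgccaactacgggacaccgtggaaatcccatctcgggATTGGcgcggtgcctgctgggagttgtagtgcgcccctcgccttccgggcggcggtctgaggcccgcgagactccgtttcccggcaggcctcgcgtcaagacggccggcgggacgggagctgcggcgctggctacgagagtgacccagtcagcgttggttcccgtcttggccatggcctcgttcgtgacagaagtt
CENPB: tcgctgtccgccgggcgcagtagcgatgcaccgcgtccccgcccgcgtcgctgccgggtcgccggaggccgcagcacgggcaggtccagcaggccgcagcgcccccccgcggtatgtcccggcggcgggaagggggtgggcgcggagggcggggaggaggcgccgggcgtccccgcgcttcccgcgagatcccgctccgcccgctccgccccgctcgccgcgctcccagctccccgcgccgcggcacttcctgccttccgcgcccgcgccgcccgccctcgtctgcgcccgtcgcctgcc

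All 38 members were measured, and all 38 passed the filter on low counts. Of these, 27 were lower in siCBX3, 3 were higher and 8 were not called. Over all 20999 genes tested, 48.4% were called, 24.0% lower and 24.4% higher, against 71.1% of the members lower and 7.89% higher. The median log2 fold change was -0.45 over the members and -0.01 over all genes tested. The members ranged from -1.31 for OIP5 to 1.07 for ZW10, and 32 of the 38 values were negative. In bulk RNA, fewer cells in the phases that express these genes and less RNA per cell cannot be told apart. Genes of those phases moved as well: 17 of 17 G2 and mitosis genes outside the kinetochore fell, with a median of -0.72, and 14 of 16 S-phase genes, with a median of -0.57. The part of that shift in the members' values was not tested. Without siNC replicate 2 the members' counts were 22 lower and 5 higher: PMF1, CENPL, SKA1, CENPM and SGO1 lost their calls, and CENPT and CENPH were then called higher.

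**Figure D1:**
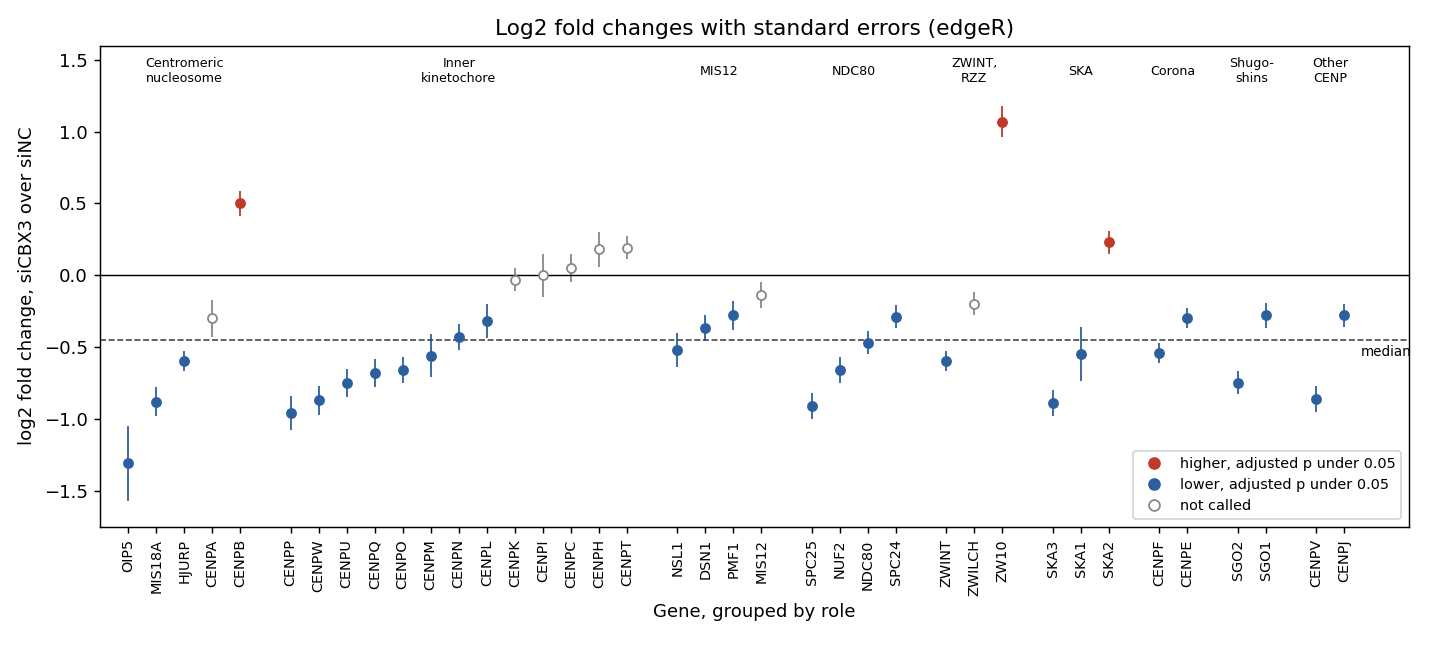
Log2 fold change of each member, siCBX3 over siNC, grouped by role, with edgeR standard errors as bars. Filled symbols are the 27 lower and 3 higher genes and open symbols the 8 not called; the dashed line is the members' median of -0.45.

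Among the proteins that make the centromeric nucleosome, those that load CENP-A fell while CENP-A itself was not called. OIP5 and MIS18A, subunits of the MIS18 complex that prepares the centromere for new CENP-A, and HJURP, the chaperone that delivers it, were all lower. OIP5 had 1.19 and 1.00 CPM in siCBX3, against 2.42 and 3.01 CPM in siNC, a 2.48-fold fall (log2 fold change -1.31, SE 0.26, adjusted p 0.000164). It had the lowest CPM of the members, with 42 and 38 counts in siCBX3 and 91 and 127 in siNC. The siCBX3 libraries were both below the siNC libraries, but OIP5 shares 38.0% of its exon bases with OIP5-AS1 on the opposite strand. That transcript stood at 25.7 CPM in siCBX3 and 35.2 CPM in siNC and also fell (-0.45), and the counting of strands and shared reads is not given in the sources used here, so reads of this pair cannot be told apart.

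MIS18A had 13.1 and 12.5 CPM in siCBX3, against 22.3 and 24.7 CPM in siNC (-0.88, SE 0.10, adjusted p 1.66e-07). HJURP had 184 and 189 CPM in siCBX3, against 279.8 and 284 CPM in siNC (-0.60, SE 0.07, adjusted p 2.09e-07). Neither gene shares exon bases with another tested gene, and in both the groups were apart by far more than the distance between replicates. CENPA, the histone variant that marks the centromere, had 9.62 and 7.89 CPM in siCBX3, against 10.6 and 10.9 CPM in siNC (-0.30, SE 0.13, adjusted p 0.0622). Its groups did not overlap, but the 2 siCBX3 libraries differed more from each other than the upper of them did from siNC, and the call depended on the setting. Adjusted p was 0.0217 with library totals, 0.0308 with upper-quartile factors, 0.0434 with the replicate block and 0.0237 without siCBX3 replicate 1, but 0.0649 with RLE size factors and 0.480 without siCBX3 replicate 2.

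CENPB moved the other way. This protein binds a short box in the alpha-satellite repeats of the centromere and is encoded by a gene with 1 exon. It had 479 and 460.5 CPM in siCBX3, against 283 and 381 CPM in siNC (0.50, SE 0.09, adjusted p 0.000107). The siNC libraries were far apart, and both siCBX3 libraries were above the higher of them. The rise was 0.30 on the log2 scale without siNC replicate 1, and DESeq2 (adjusted p 0.0512) and limma on log2(RPKM + 1) (0.203) did not call it.

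The 13 inner kinetochore genes measured under CENP names, which form the constitutive centromere-associated network (CCAN), divided into 8 that were lower and 5 that were not called, with none higher. The CENP-O, P, Q and U proteins form 1 module of this network, and all 4 of their genes fell. CENPU had 22.7 and 29.2 CPM in siCBX3, against 40.7 and 46.8 CPM in siNC (-0.75, SE 0.10, adjusted p 1.77e-06), and the siCBX3 libraries were the more spread of the groups. Of the CENPU exon bases 11.7% are shared with PRIMPOL on the opposite strand, itself at -0.52. CENPQ had 15.7 and 17.5 CPM in siCBX3, against 26.7 and 26.5 CPM in siNC (-0.68, SE 0.10, adjusted p 3.4e-06). CENPO had 25.6 and 27.3 CPM in siCBX3, against 41.1 and 42.7 CPM in siNC (-0.66, SE 0.09, adjusted p 8.63e-07). It shares 27.0% of its exon bases with ADCY3 on the opposite strand, itself at -0.49.

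CENPP had the largest fall in the network, with 9.39 and 8.26 CPM in siCBX3, against 16.6 and 17.8 CPM in siNC (-0.96, SE 0.12, adjusted p 2.2e-07). Of its exon bases 38.0% lie under IPPK on the opposite strand, which fell by a like amount (-0.85), so this value is uncertain. CENPR, the fifth protein of the module, is listed under its older symbol ITGB3BP, which is outside the 38 members. It had 22.3 and 22.8 CPM in siCBX3, against 21.8 and 23.7 CPM in siNC (-0.01, SE 0.10, adjusted p 0.942), so its libraries overlapped where those of its 4 partners did not. Its values, like those of KNTC1 and STRA13 below, are given although the naming rule for related genes does not cover them.

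The histone-fold proteins of the network gave a similar contrast. CENPW, which pairs with CENP-T on DNA, had 14.2 and 14.6 CPM in siCBX3, against 26.0 and 26.5 CPM in siNC (-0.87, SE 0.10, adjusted p 7.91e-08). CENPT, whose long tail recruits the NDC80 complex, had 55.1 and 57.2 CPM in siCBX3, against 46.4 and 52.0 CPM in siNC (0.19, SE 0.08, adjusted p 0.0633). Per kilobase, CENPW RNA was 1.79 and 1.78 times CENPT RNA in the siCBX3 libraries and 3.90 and 3.55 times in the siNC libraries, a ratio that does not depend on scaling. CENPT shares exon bases with 3 genes on the opposite strand, up to 10.8% with TSNAXIP1. It was called higher without siNC replicate 2 (adjusted p 0.00939). The remaining histone-fold partners, CENP-S and CENP-X, are listed as APITD1 and STRA13 and lie outside the 38. Both were lower, with log2 fold changes of -0.68 and -0.49 (adjusted p 8.61e-07 and 0.000115).

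CENP-C and the CENP-H, I, K and M module carry the contacts between the CENP-A nucleosome and the outer kinetochore. CENPC had 18.0 and 18.4 CPM in siCBX3, against 18.5 and 16.6 CPM in siNC (0.05, SE 0.10, adjusted p 0.718). CENPK had 57.9 and 58.5 CPM in siCBX3, against 56.2 and 62.4 CPM in siNC (-0.03, SE 0.08, adjusted p 0.806). CENPI had 6.18 and 6.97 CPM in siCBX3, against 6.05 and 7.12 CPM in siNC (0.00, SE 0.15, adjusted p 0.987). In each of these 3 genes the groups overlapped, and the sign changed with the setting.

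CENPH had 17.3 and 15.5 CPM in siCBX3, against 12.3 and 16.7 CPM in siNC (0.18, SE 0.12, adjusted p 0.257). Its value rested on 1 library at a time, being 0.42 without siNC replicate 2 (adjusted p 0.00524) and -0.03 without siNC replicate 1 (adjusted p 0.894). CENPM, the last of this module, had 4.94 and 5.28 CPM in siCBX3, against 6.77 and 8.24 CPM in siNC (-0.56, SE 0.15, adjusted p 0.00382) and was not called without siNC replicate 2 (adjusted p 0.0643). CENPN and CENPL, which bind each other and the CENP-A nucleosome, had log2 fold changes of -0.43 (adjusted p 0.000599) and -0.32 (0.0289). CENPN shares 12.8% of its exon bases with CMC2 on the opposite strand, itself at -0.11. The CENPL call ended with DESeq2 (adjusted p 0.128) and with limma on RPKM. It also ended without siCBX3 replicate 1 (log2 fold change -0.18) or without siNC replicate 2 (-0.27).

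**Figure D2:**
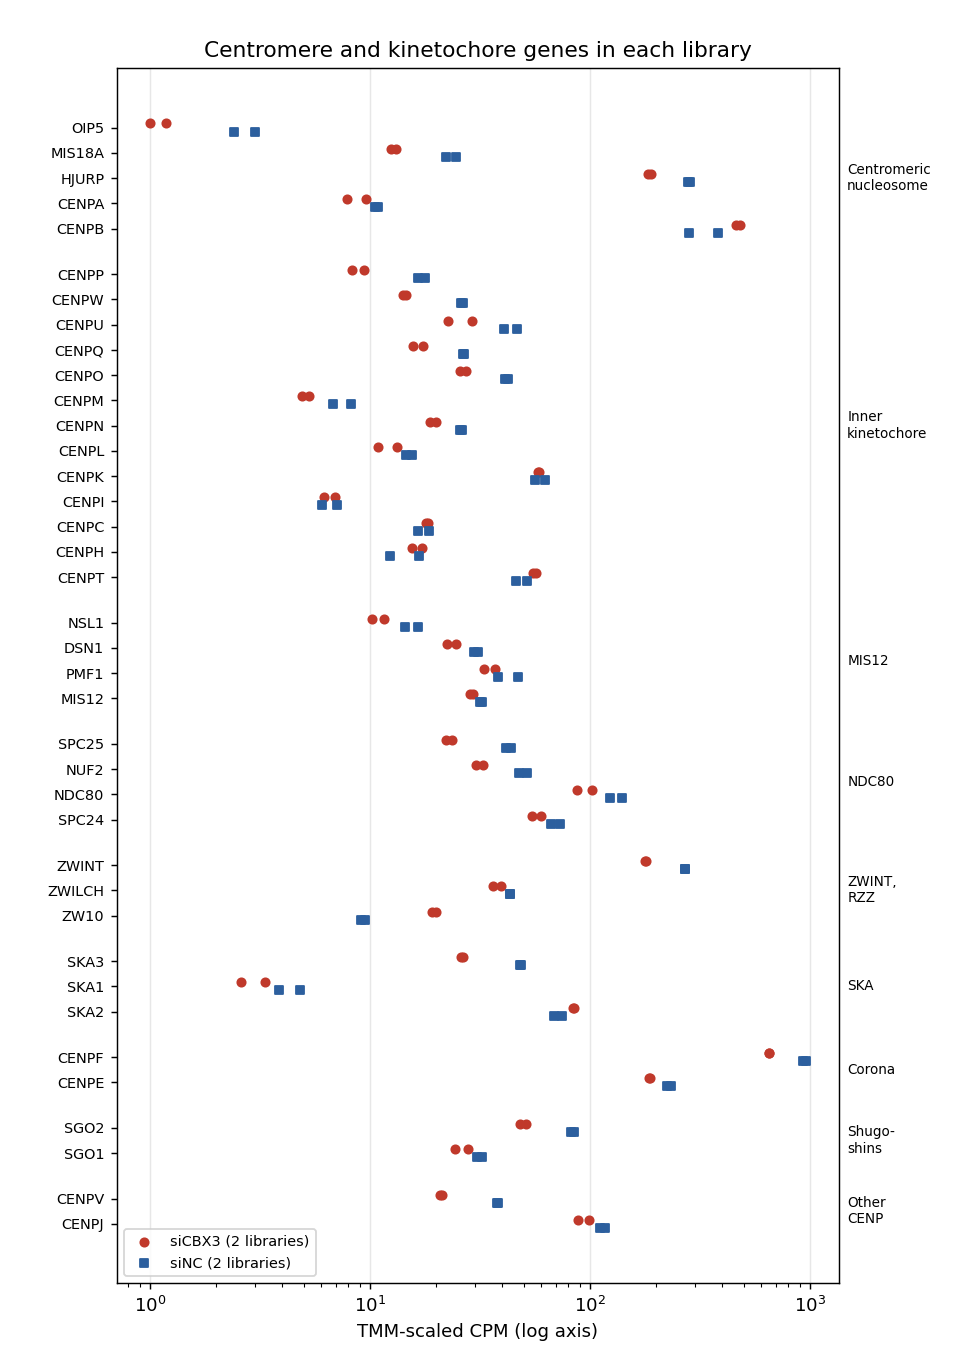
TMM-scaled CPM of each member in every library, on a log axis, with members grouped by role and ordered by log2 fold change within a group. The 2 siCBX3 libraries (circles) stand left of the 2 siNC libraries (squares) in most rows, right of them for ZW10, CENPB, SKA2 and CENPT, and overlap them for CENPK, CENPI, CENPC and CENPH.

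The MIS12 complex bridges the inner and outer kinetochore, and 3 of its 4 genes fell by modest amounts. NSL1 had 10.2 and 11.6 CPM in siCBX3, against 14.5 and 16.5 CPM in siNC (-0.52, SE 0.12, adjusted p 0.000762). Limma on log2(RPKM + 1) did not call NSL1 (adjusted p 0.069). DSN1, the subunit that Aurora B phosphorylates to tighten the link to CENP-C, had 22.4 and 24.6 CPM in siCBX3, against 29.8 and 31.1 CPM in siNC (-0.37, SE 0.09, adjusted p 0.00165). Neither shares exon bases with a tested gene. PMF1 had 33.2 and 36.9 CPM in siCBX3, against 38.1 and 47.0 CPM in siNC (-0.28, SE 0.10, adjusted p 0.0192). Its call ended with DESeq2 (adjusted p 0.0657) and with limma on RPKM. It also ended without siCBX3 replicate 1 (log2 fold change -0.21) or siNC replicate 2 (-0.12). Of the PMF1 exon bases 23.3% belong also to the readthrough gene PMF1-BGLAP. MIS12 itself had 29.5 and 28.5 CPM in siCBX3, against 31.6 and 32.3 CPM in siNC (-0.14, SE 0.09, adjusted p 0.192).

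All 4 genes of the NDC80 complex, the main microtubule receptor of the kinetochore, were lower, though not by the same amount. SPC25 had 22.2 and 23.6 CPM in siCBX3, against 41.8 and 44.0 CPM in siNC, a 1.87-fold fall (-0.91, SE 0.09, adjusted p 7.6e-09). SPC24, with which SPC25 forms the end of the complex that docks on MIS12 and CENP-T, had 59.7 and 54.9 CPM in siCBX3, against 66.7 and 73.2 CPM in siNC (-0.29, SE 0.08, adjusted p 0.00504), and was not called without siCBX3 replicate 2 (adjusted p 0.112). The ratio of SPC25 to SPC24 per kilobase was 0.573 and 0.664 in the siCBX3 libraries, against 0.966 and 0.928 in the siNC libraries. The partners NUF2 and NDC80 form the microtubule-binding end. NUF2 had 30.3 and 32.6 CPM in siCBX3, against 47.5 and 51.9 CPM in siNC (-0.66, SE 0.09, adjusted p 8.06e-07). NDC80 had 87.5 and 102 CPM in siCBX3, against 123 and 140.2 CPM in siNC (-0.47, SE 0.08, adjusted p 5.23e-05). Limma on log2(RPKM + 1) did not call NDC80 (adjusted p 0.0672). The ratio of NUF2 to NDC80 per kilobase was 0.371 and 0.342 in siCBX3, against 0.412 and 0.396 in siNC.

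ZW10 had the largest rise of the 38 members. With ZWILCH and KNTC1 it forms the RZZ complex, which brings dynein and checkpoint proteins to unattached kinetochores, and in interphase it takes part, with RINT1 and NBAS, in tethering vesicles to the endoplasmic reticulum. ZW10 (chromosome 11, 113733187 to 113773811, minus strand) had 19.1 and 20.0 CPM in siCBX3, against 9.55 and 9.09 CPM in siNC, a 2.10-fold rise (1.07, SE 0.11, adjusted p 1.69e-08). The counts were 674 and 757 in siCBX3, against 360 and 383 in siNC, and ZW10 shares no exon base with another tested gene. It was called higher in all 14 settings run, from 0.81 to 1.10, the low end on log2(RPKM + 1).

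The other RZZ genes did not rise. ZWILCH had 36.3 and 39.4 CPM in siCBX3, against 43.5 and 43.4 CPM in siNC (-0.20, SE 0.08, adjusted p 0.0548), and KNTC1, which encodes ROD, fell by 0.50 (SE 0.08, adjusted p 2.56e-05). Per kilobase, ZW10 stood at 0.854 and 0.822 of ZWILCH in the siCBX3 libraries, against 0.356 and 0.339 in the siNC libraries. It stood at 2.12 and 2.16 of KNTC1 in siCBX3, against 0.764 and 0.685 in siNC, so ZW10 RNA was above KNTC1 RNA in the siCBX3 libraries and below it in the siNC libraries. RINT1 (-0.36, adjusted p 0.00532) and NBAS (-0.21, adjusted p 0.0511) did not rise with it. USE1, looked up with them, had both siCBX3 libraries above the siNC libraries but was not called (0.13, adjusted p 0.324). All were chosen after their values were seen. ZWINT, which binds KNL1 and links it to RZZ, had 178 and 179 CPM in siCBX3, against 271 and 270.4 CPM in siNC (-0.60, SE 0.07, adjusted p 1.85e-07).

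The SKA complex, which tracks microtubule ends beside NDC80, had its largest fall in SKA3. SKA3 had 25.9 and 26.6 CPM in siCBX3, against 48.6 and 48.4 CPM in siNC (-0.89, SE 0.09, adjusted p 5.6e-09), the smallest p-value among the members. SKA1, the subunit that touches the microtubule, had 3.35 and 2.61 CPM in siCBX3, against 3.87 and 4.82 CPM in siNC (-0.55, SE 0.19, adjusted p 0.0222). Its call ended with DESeq2 (adjusted p 0.141) and with limma on RPKM. It also ended without siCBX3 replicate 2 (log2 fold change -0.38) or siNC replicate 2 (-0.38). SKA2 had 85.0 and 83.5 CPM in siCBX3, against 68.7 and 74.7 CPM in siNC (0.23, SE 0.08, adjusted p 0.0162). This rise was called in 7 of 14 settings, and its adjusted p was 0.120 without siCBX3 replicate 1, 0.0717 without siCBX3 replicate 2, 0.0958 without siNC replicate 1 and 0.131 with library totals. SKA3 RNA per kilobase was 0.314 and 0.329 of SKA2 in siCBX3, against 0.731 and 0.669 in siNC.

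CENPE and CENPF, the only members grouped here as corona genes, and the shugoshin genes SGO1 and SGO2 were all lower. The RZZ genes given above, with the raised ZW10, were not counted in that corona group. CENPF, a large coiled-coil protein of the fibrous corona, was the member with the highest CPM, with 655 and 650.5 CPM in siCBX3, against 934 and 958 CPM in siNC (-0.54, SE 0.07, adjusted p 1.18e-06). The kinesin CENPE, which carries chromosomes to the spindle equator, had 186 and 188 CPM in siCBX3, against 234 and 225 CPM in siNC (-0.30, SE 0.07, adjusted p 0.00133). SGO2 had 48.0 and 51.4 CPM in siCBX3, against 82.2 and 84.4 CPM in siNC (-0.75, SE 0.08, adjusted p 2.88e-08). SGO1, the shugoshin that shields centromeric cohesin in mitosis, fell less, with 24.4 and 28.0 CPM in siCBX3, against 30.8 and 32.5 CPM in siNC (-0.28, SE 0.09, adjusted p 0.0174). The SGO1 call ended with DESeq2 (adjusted p 0.0656) and with limma on RPKM. It also ended without siCBX3 replicate 1 (log2 fold change -0.18) or siNC replicate 2 (-0.23). Of the SGO1 exon bases 17.7% lie under SGO1-AS1, which had a log2 fold change of -0.30. SGO2 RNA was 1.25 and 1.17 times SGO1 RNA per kilobase in siCBX3, against 1.70 and 1.65 times in siNC.

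CENPV and CENPJ carry CENP names but stand apart from the core structure. CENPJ, a centriole assembly protein, had 88.7 and 98.7 CPM in siCBX3, against 117 and 111 CPM in siNC (-0.28, SE 0.08, adjusted p 0.00425; 0.139 without siCBX3 replicate 1). CENPV had 20.8 and 21.2 CPM in siCBX3, against 37.8 and 38.2 CPM in siNC (-0.86, SE 0.09, adjusted p 2.04e-08), one of the larger falls of the set. It shares 8.96% of its exon bases with PIGL on the opposite strand, itself at -0.33.

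Levels per kilobase of gene length (RPKM, as deposited) spanned from 0.862 RPKM (OIP5) to 161 RPKM (CENPB) in siCBX3 and from 1.52 RPKM (SKA1) to 120 RPKM (CENPB) in siNC. The median member stood at 7.79 and 8.67 RPKM in the siCBX3 libraries, against 13.1 and 14.3 RPKM in the siNC libraries, while the median of all tested genes was 2.40 and 2.44 RPKM, against 2.42 and 2.51 RPKM. CENPB, ZWINT, CENPF and HJURP held the first 4 places in that order by group mean. In siNC the order of CENPB (101 and 140.1 RPKM) and ZWINT (115 and 119 RPKM) was within the spread of the libraries, with ZWINT the higher in siNC replicate 1. Subunits of 1 complex differed widely in RNA level: CENPW averaged 17.6 RPKM in siCBX3 and 33.9 RPKM in siNC, while CENPI averaged 1.48 and 1.57 RPKM. Within the NDC80 complex the order in siCBX3 was NDC80 (25.6 RPKM), SPC24 (19.6), SPC25 (12.1) and NUF2 (9.10). In siNC it was NDC80 (37.6 RPKM), SPC24 (25.3), SPC25 (24.0) and NUF2 (15.2). SPC24 and SPC25 lay within the spread of their libraries in siNC (23.7 and 26.9 RPKM against 22.9 and 25.0 RPKM) and were apart in siCBX3 (20.3 and 18.9 RPKM against 11.6 and 12.6 RPKM). Together the 38 genes took 0.254% and 0.261% of all counts in siCBX3, against 0.324% and 0.356% in siNC.

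**Figure D3:**
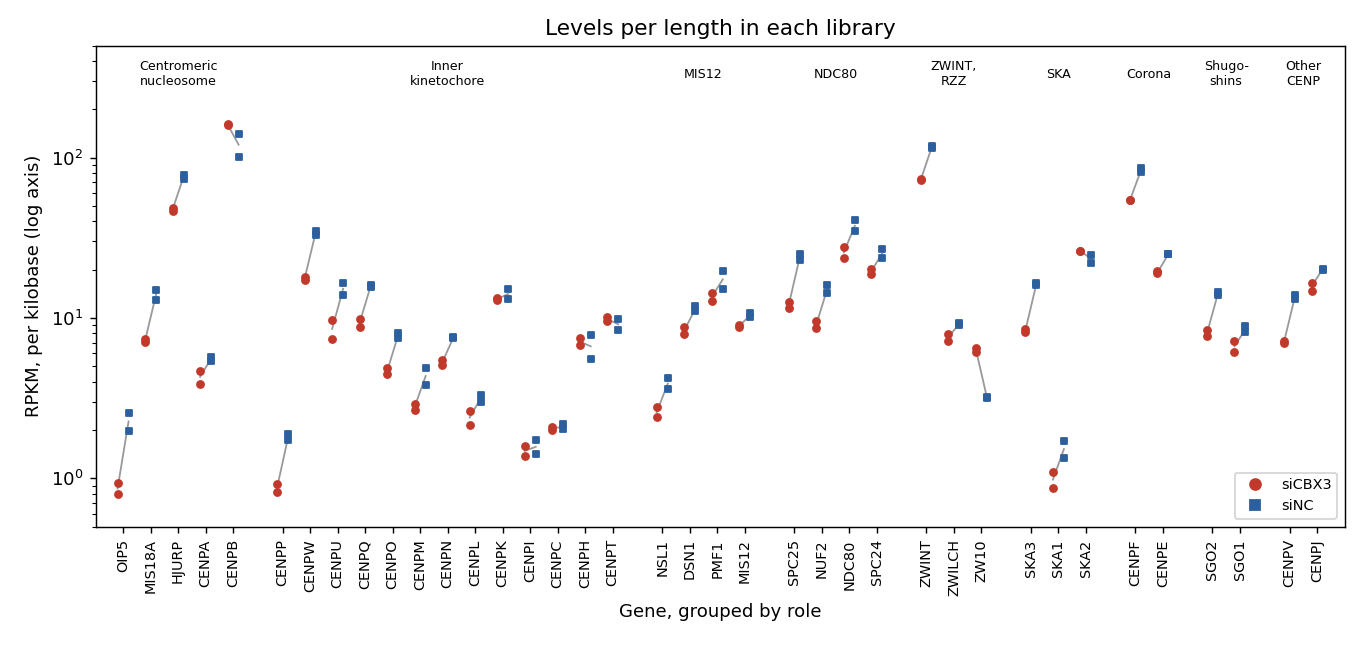
Deposited RPKM of each member on a log axis, siCBX3 libraries as circles on the left of each gene and siNC libraries as squares on the right, with a line between the group means. The line of ZW10 slopes down most steeply, from 6.35 RPKM in siCBX3 against 3.20 RPKM in siNC, and most other lines slope up to the right.

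Promoters from the RefSeq table matched 33 of the 38 members by symbol. CENPL, CENPJ, MIS18A, CENPM and CENPH had none. CHR letters (TTTGAA or TTCGAA, either strand, counted per gene over all its promoters) were found in 16 of 33 members, 48.5%, against 15.8% of 11624 tested genes and 16.4% of all 35116 promoters. In 13 of those 16 they lay within 50 bases of the annotated start, a window chosen after the matches were seen. Of all promoters 5.01% hold them in that window, and of tested genes 4.98%. The 13 were NUF2, CENPF, ZWINT, SKA3, OIP5, CENPN, NDC80, SKA1, CENPO, CENPA, SPC25, SGO1 and CENPW, of which 12 were lower and CENPA was not called, with a median log2 fold change of -0.60. Of the 20 other members with a promoter 11 were lower, with a median of -0.28. Over all tested genes the median was -0.13 with CHR letters in that window and 0.00 without, and 36.6% against 27.5% were lower. Over the whole promoter the split was weaker. Of the 16 members with CHR letters 13 were lower (median -0.57), and of the 17 without them 10 were lower (median -0.29). Among all tested genes 32.0% with CHR letters anywhere in the promoter were lower, against 27.2% without.

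In the printed promoters the CHR letters begin at position 2 in OIP5, counting the start as position 1, and 3 bases before the start in SKA3. NDC80 has both forms side by side across the start, TTTGAA read on the opposite strand from 3 bases before it and TTCGAA from position 4. ZW10 has TTTGAA only at 224 bases before the start, outside the 50-base window, and CENPB has none of the 4 motifs in its 300 bases. The printed promoters do not stand for the set. The 10 members that were lower with no CHR letters in any promoter were CENPP, CENPV, SGO2, CENPQ, CENPU, NSL1, DSN1, CENPE, SPC24 and PMF1. SKA2, also raised, has none either. CCAAT was found in 21 of 33 members, 63.6%, against 42.6% of tested genes and 34.6% of all promoters. Members with CCAAT had a median of -0.43 and those without it -0.50. TTTNGCGC was found in OIP5, CENPC and CENPU, 9.09% of members, against 3.35% of tested genes and 1.79% of all promoters. A match describes letters in this window and says nothing on binding.

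Lists of related genes were set beside the members. Of the other centromere and kinetochore genes 7 of 15 were lower and 3 higher (median -0.18). CASC5, the older symbol of the checkpoint scaffold KNL1, fell by 0.66 (adjusted p 2.67e-07), and CDCA5, which encodes sororin, by 0.68 (adjusted p 8.46e-06). Of the spindle checkpoint genes 7 of 11 were lower and 1 higher (median -0.31). CDC20, the target of the checkpoint, fell by 0.98 (adjusted p 1.09e-09), TRIP13, which disassembles checkpoint complexes, by 0.41 (adjusted p 0.000173), and MAD1L1 rose by 0.37 (adjusted p 0.000208). All 4 tested genes of the chromosomal passenger complex fell (median -0.55): CDCA8, which encodes borealin, by 1.02 (adjusted p 1.94e-09), BIRC5, which encodes survivin, by 0.64 (adjusted p 6.95e-06) and INCENP by 0.47 (adjusted p 2.11e-05). Microtubule attachment genes were lower in 9 of 17 and higher in 2 (median -0.23). SPAG5, which encodes astrin, fell by 0.69 (adjusted p 6.25e-08) and the depolymerase gene KIF2C by 0.50 (adjusted p 4.78e-06), while CLIP1, a plus-end protein, had 288 and 295 CPM in siCBX3, against 123 and 127 CPM in siNC (1.22, SE 0.07, adjusted p 9.67e-13).

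Cell-cycle regulators (MuvB, MYB, FOXM1 and E2F genes) were lower in 11 of 21 and higher in 3 (median -0.25). TFDP1, the dimer partner of the E2F factors, had 25.8 and 24.4 CPM in siCBX3, against 62.7 and 64.7 CPM in siNC (-1.35, SE 0.08, adjusted p 2.42e-12). The repressive E2F7 rose by 0.93 (adjusted p 2.7e-09) and MYBL1 fell by 0.95 (adjusted p 3.37e-08). Among S-phase genes TYMS fell by 0.88 (adjusted p 6.05e-10), MCM6 by 0.78 (adjusted p 2.27e-08) and CCNE2 by 1.01 (adjusted p 2.71e-08). Among G2 and mitosis genes MKI67 fell by 1.13 (adjusted p 1.1e-11), TOP2A by 0.89 (adjusted p 3.23e-10) and KIF20A by 0.90 (adjusted p 9.14e-10). Over the 101 tested genes of these 7 lists 68.3% were lower and 8.91% higher, with a median of -0.41, against 71.1% and 7.89% of the members. The lists and members share the same 4 libraries, and no test of a difference between them was made.

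**Figure D4:**
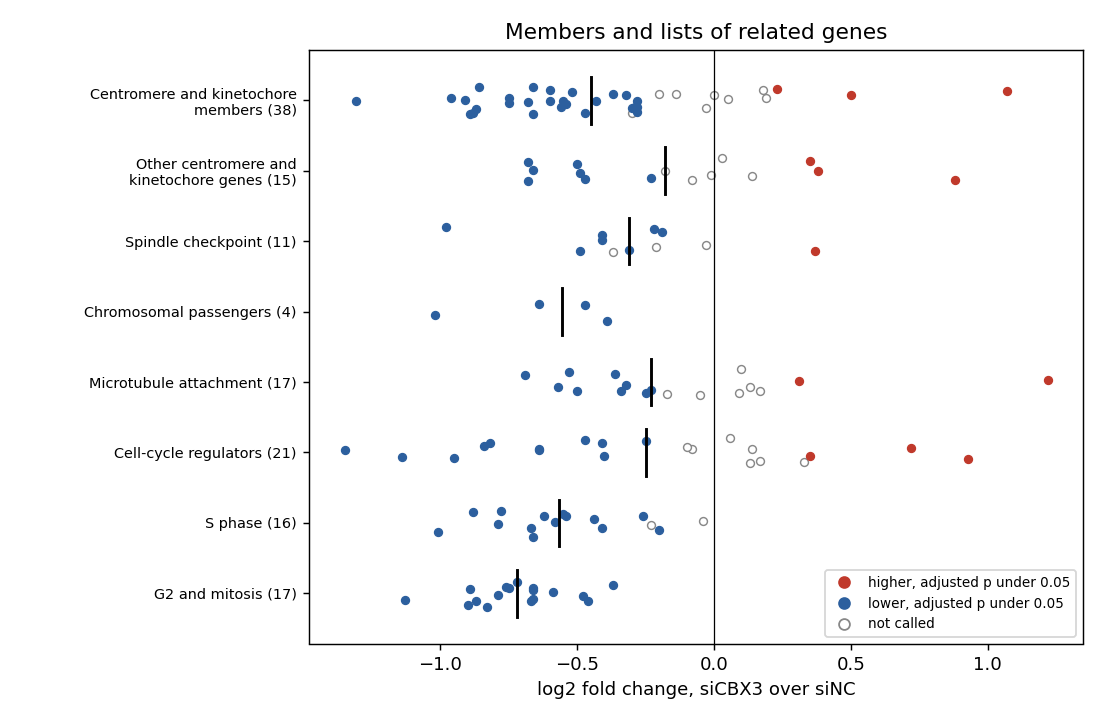
Log2 fold change, siCBX3 over siNC, of the 38 members (top row) and of the tested genes of 7 related lists, 1 point per gene, with a black bar at each median and the number of genes in brackets. The medians run from -0.72 for G2 and mitosis genes to -0.18 for the other centromere and kinetochore genes, and the rightmost member is ZW10 at 1.07.

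Exon sharing was examined for each member, since reads of overlapping genes may be split or pooled in the counts. Of the 38 members 22 share no exon base with another tested gene, and of these 15 were lower, 3 higher and 4 not called, with a median of -0.50. The 16 that share bases had 12 lower, 0 higher and 4 not called, with a median of -0.37. The raised genes ZW10, CENPB and SKA2 are all among the 22. Of the called members, 18 kept their direction and their call in all 14 settings run, namely ZW10, which rose, and 17 that fell: OIP5, CENPP, SPC25, SKA3, MIS18A, CENPW, CENPV, SGO2, CENPQ, CENPO, NUF2, HJURP, ZWINT, CENPF, CENPN, DSN1 and CENPE. No called member changed sign in any setting. None of these settings changed how reads of overlapping genes were counted. The overlaps given above for OIP5, CENPP and CENPO therefore remain a limit on their falls.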

How the data were processed

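Stranded mRNA libraries of 143B cells on day 2 after transfection were compared, 2 siCBX3 against 2 siNC. The authors deposited raw read counts per gene and RPKM values for 37450 features. Reads had been trimmed, aligned and counted upstream: the submitters' processing notes list STAR 2.5.3a, Trimmomatic 0.36, Subread 1.5.1 (featureCounts) and GRCh38. How strand, shared reads and molecular identifiers were handled is not given in the sources used here. Deposited RPKM equalled counts scaled by length and library total within a relative difference of 3.8e-07. Of count values between 1 and 10, 76.9% were even, so counts need not be independent molecules. The reason was not tested.

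Counts were tested in edgeR 4.0.16 (R 4.3.3) with filterByExpr (minimum count 10, minimum total 15), TMM factors and a quasi-likelihood model with group as the only term, over all 20999 genes kept, with 2 residual and 22 prior degrees of freedom and Benjamini-Hochberg adjustment. Standard errors were obtained by dividing each absolute log2 fold change by the square root of its F. In simulated counts with known changes and a common dispersion, only the calls and their signs were checked, not the standard errors. The outcome is not given here. Alternatives used DESeq2 1.42.0, limma 3.58.1, other scalings and filters, a replicate block and each library left out. Exon sharing used bedtools 2.31.1 on the count table's coordinates. Every member is named; per-library values are given for the 3 members of each role with the smallest adjusted p, for members called against the majority, for members not called and for some others. Outside the members, up to 3 genes of each related list with the smallest adjusted p are named, plus CBX3 and the exceptions given in the text. Members and lists were chosen with earlier results of these data known. Tables and plots used Python 3.11.15, pandas 2.3.3 and matplotlib 3.10.9.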

Additional observations from a re-analysis of the deposited data

How the results depend on the processing

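Over 13 alternatives for each of 38 members, 429 of 494 results kept their direction and their side of the threshold, 44 lost a call, 12 gained one and 9 changed sign, all 9 in members not called: CENPC (-0.03 with library totals, -0.02 and -0.03 on RPKM plus 1 and plus 0.1, -0.02 without siNC replicate 2), CENPK (0.05 without siNC replicate 2), CENPH (-0.03 without siNC replicate 1) and CENPI (0.01 with no filter, 0.08 without siCBX3 replicate 1, 0.12 without siNC replicate 2). With each library left out in turn these 4 genes ranged from -0.02 to 0.13, from -0.10 to 0.05, from -0.03 to 0.42 and from -0.11 to 0.12, in that order. With limma on RPKM plus 1 or plus 0.1 fewer were called: 17 or 18 members lower and 1 higher, 3049 or 3193 genes lower and 2286 or 2440 higher, and 3 genes of the related lists higher in either case; the cause was not tested. With DESeq2 23 members were lower and 2 higher, and PMF1, CENPL, SKA1, CENPB and SGO1 lost their calls. Both limma fits lost the same genes and also NSL1, CENPJ, SKA2, NDC80, SPC24 and CENPM. CENPU was lost on RPKM plus 1 only. The members' median was -0.53 with library totals and -0.53 on RPKM plus 0.1. Among members sharing no exon base 15 were lower, which follows from there being fewer of them. Leaving out each library in turn gave 22 to 27 members lower and 2 to 5 higher, a median of -0.49 to -0.38, 4109 to 4641 genes lower and 4232 to 5013 higher, 59 to 71 genes of the related lists lower and 8 to 12 higher, and -3.23 to -3.15 for CBX3.

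Replicates of the same number did not deviate together (correlation 0.0287 across genes), and with 2 libraries per group they share only a number. A fit with the replicate block called 29 members lower and 4 higher, adding ZWILCH, CENPA and CENPT and losing none. With 38 to 127 counts per library OIP5 was the most limited by depth.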
